A study of Macaca mulatta with 43 samples.

Results

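Period and cryptochrome proteins are the repressor arm of the circadian clock. CLOCK and BMAL1 (gene symbol ARNTL) bind DNA as a pair and switch on the PER and CRY genes, and the PER and CRY proteins then return to the nucleus and shut that pair down, which gives a daily cycle. PER1 is in addition a gene that responds to stimuli within a cell, through CREB and the glucocorticoid receptor, so its mRNA follows stress hormones and neuronal activity as well as the time of day. In mice, loss of Per2 changes how much alcohol the animals drink.

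The genes described here are PER1, PER2 and CRY2, taken as every probeset of the array whose only gene symbol in the platform's probe table is one of these. A probeset is a set of short oligonucleotides whose signals are summarized as a single value. These were 4 probesets of 3 genes, out of 24956 probesets that name 1 of 14132 genes. PER1 and CRY2 had 1 probeset each and PER2 had 2, which the array lists as MmugDNA.41285.1.S1_s_at and MmugDNA.41285.1.S1_at and which share a target sequence name. All 4 passed the filter on low values, and levels are not set against each other between probesets.

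The data came from medial prefrontal cortex of 43 adult male rhesus macaques aged 5 to 11 years, with RNA of Brodmann areas 24, 25 and 32 pooled within an animal and 1 array per animal. The ethanol-drinking animals had been induced to drink on a schedule and then had open access to 4% (w/v) ethanol and to water for 22 h per day over 1 year. The controls drank water and received a calorie-matched maltose dextran solution. Cohort 4 held 11 drinkers and no control, cohort 5 held 8 drinkers and 5 controls, cohort 7a held 8 drinkers and 4 controls, and cohort 7b held 5 drinkers and 2 controls, 32 drinkers and 11 controls in all. RNA was extracted with one kit in cohorts 4 and 5 and with another in cohorts 7a and 7b, and these pairs of cohorts were also run on arrays at separate times. Kit, array run and cohort therefore cannot be told apart in any comparison of cohorts 4 and 5 with 7a and 7b. Values are log2 RMA values, and array medians lay between 5.74 and 5.87.

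The tissue carried brain markers as labeled. The neuronal vesicle gene SYT1 stood at the 99.8th percentile of all probesets by mean level, the astrocyte gene GFAP at the 99.3rd and the myelin gene MBP at the 99.6th. PER1 stood at the 80.7th percentile, CRY2 at the 86.3rd and the brighter PER2 probeset at the 43.7th, while the dimmer PER2 probeset stood at the 15.3rd and was under 3.5 on 7 arrays. The clock hour of each necropsy was not used here, and its part in the spread between animals was not tested.

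No difference in PER1 between drinkers and controls passed the test, in any cohort or over all arrays. In cohort 5, PER1 ran between 7.99 and 8.56 in drinkers, with a median of 8.23, and was 8.10, 8.14, 8.16, 8.43 and 8.49 in controls. In cohort 7a, PER1 ran between 8.02 and 8.64 in drinkers, with a median of 8.36, and was 8.11, 8.23, 8.29 and 8.54 in controls. In cohort 7b, PER1 was 7.91, 8.03, 8.23, 8.25 and 8.42 in drinkers and 7.75 and 8.13 in controls. Drinkers and controls overlapped in every one of these cohorts, with 1 of 8 drinkers above all controls and 1 of 8 below all of them in cohort 5, and the same counts in cohort 7a. In cohort 4, which had no control, PER1 ran between 7.83 and 8.30.

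PER1 had a mean of 8.21 ± 0.20 over all 32 drinkers and 8.22 ± 0.22 over all 11 controls (SD). By limma, drinkers minus controls came to -0.01 on the log2 scale (SE 0.07, adjusted p = 0.954). The 95% interval, from -0.15 to 0.14, corresponds to 0.899-fold to 1.10-fold. With cohort as a block the difference was 0.07 (SE 0.07, adjusted p = 0.473). Within cohorts it was -0.02 in cohort 5 (SE 0.10), 0.08 in cohort 7a (SE 0.11) and 0.23 in cohort 7b (SE 0.15), with adjusted p of 1.00, 0.627 and 0.234. With 1 array left out it ran between 0.01 (without control 27) and 0.16 (without control 28) in cohort 7a, and between 0.04 (without control 37) and 0.42 (without control 38) in cohort 7b. The sign of a difference this small changed with the fit, and within the 7 processing batches that held a control it was above 0 in 4.

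**Figure D1:**
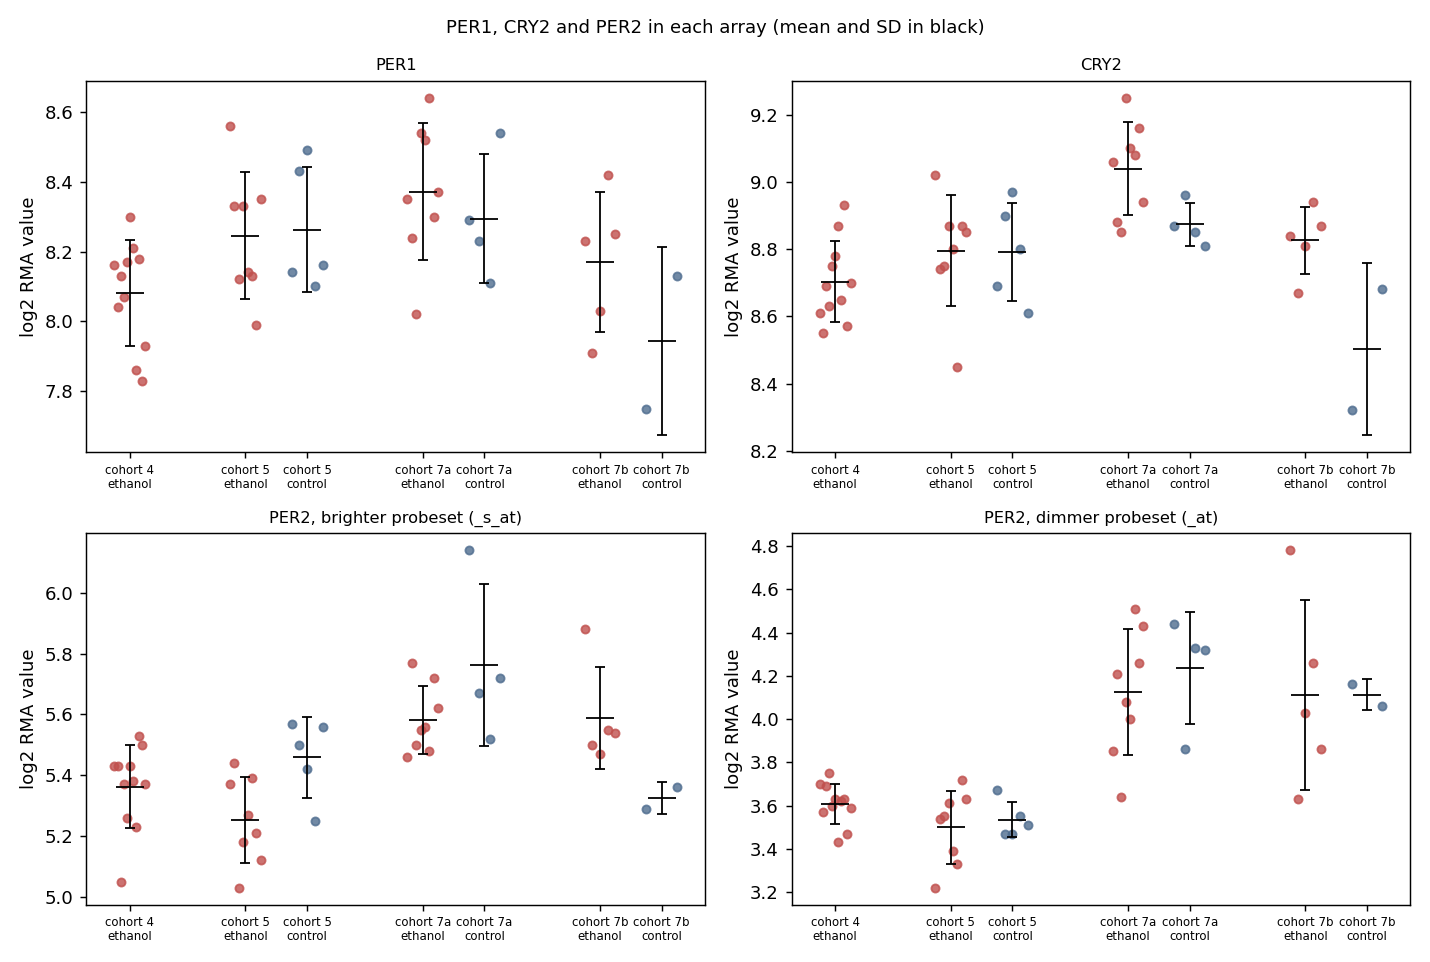
Log2 RMA value (y axis) of the probesets of PER1, CRY2 and PER2 for each of the 43 arrays, by cohort and treatment; red points are ethanol drinkers, blue points are controls, and black bars are the group mean and SD. PER1 overlaps between drinkers and controls in cohorts 5, 7a and 7b, CRY2 sits higher in drinkers of cohort 7b except for 1 animal, and the brighter PER2 probeset sits lower in drinkers of cohort 5 but higher in drinkers of cohort 7b.

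CRY2, a cryptochrome that joins PER proteins in the repressor complex, was higher in drinkers of cohort 7b by 1.25-fold, and this was the 1 call made for these genes within a cohort. In cohort 7b, CRY2 was 8.67, 8.81, 8.84, 8.87 and 8.94 in drinkers and 8.32 and 8.68 in controls. All but 1 drinker lay above both controls, and how many of all probesets separate the groups in this way was not counted. In the inferred processing batches, only 1 drinker and 1 control of cohort 7b shared a batch. Batch and treatment can thus hardly be told apart within cohort 7b. The log2 difference was 0.32 (SE 0.11, 95% interval 0.09 to 0.56, limma adjusted p = 0.0219), in a comparison that called 40.1% of 24151 probesets, with 14% called higher. It rested on 1 control: without control 37 the difference was 0.14 (adjusted p = 0.520). Fitting cohort 7b on its own gave an adjusted p of 0.0959, and a two-sided exact permutation test of the 5 drinkers against 2 controls gave p = 0.0952, where 0.0476 is the smallest p these numbers allow. With the RNA integrity number of each animal as a term, which drops control 37 because it has none, the difference was 0.06 (adjusted p = 0.887).

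In cohort 7a, CRY2 ran between 8.85 and 9.25 in drinkers, with a median of 9.07, and was 8.81, 8.85, 8.87 and 8.96 in controls. Of the 8 drinkers, 5 lay above every control and none below, counts not set against all probesets. The log2 difference was 0.16 (SE 0.08, limma adjusted p = 0.134), and the exact permutation p was 0.0505. In this comparison 30.9% of probesets were called. In cohort 5, CRY2 ran between 8.45 and 9.02 in drinkers, with a median of 8.83, and was 8.61, 8.69, 8.80, 8.90 and 8.97 in controls, which spanned most of the range of the drinkers. The difference there was 0.00 (SE 0.08, 95% interval -0.15 to 0.16, adjusted p = 1.00). No probeset of the array was called within cohort 5 by limma in the fit over all groups, and 1 was called when cohort 5 was fitted on its own. An unadjusted limma p under 0.05 was seen for 731 of 24151 probesets. That is a share under 0.05, the share that unadjusted p-values reach without any difference.

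CRY2 had a mean of 8.83 ± 0.18 over all 32 drinkers and 8.77 ± 0.19 over all 11 controls (SD), and the difference was 0.06 (SE 0.06, limma adjusted p = 0.557). Blocking on cohort gave 0.13 (SE 0.05, adjusted p = 0.0641), and with processing batch as a block 0.10 (SE 0.06, adjusted p = 0.297). Within batches, drinkers had the higher mean in 6 of the 7 that held a control, but most of these differences were small. Their median was 0.03, and they ran between -0.32 and 0.82. The highest set 3 drinkers of cohort 7a against control 37 of cohort 7b, the control on which the call in that cohort rested. Of the 4 probesets, 0 were called over all arrays, where 16.2% of the tested probesets were (5.57% higher and 10.6% lower), and 0 with cohort as a block, where 33.3% were. After an adjustment of the values for cohort by ComBat, CRY2 passed with a difference of 0.12 (adjusted p = 0.0390), in a fit that called 37.7%. With cohort as a block it also passed when control 13 or 14 or drinker 22 or 31 was left out.

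RNA quality was also read in drinkers and controls, without a test between them, and the groups were apart in cohort 7a and overlapped in cohorts 7b and 5. The actin 3′ minus 5′ value, a gauge of RNA quality among arrays processed alike, ran between 0.93 and 1.60 in drinkers of cohort 7a and between 0.76 and 0.87 in its controls. In cohort 7b it ran between 0.76 and 1.71 in drinkers and was 0.75 and 0.81 in controls, and in cohort 5 it ran between 4.36 and 4.95 in drinkers and between 4.24 and 4.74 in controls. With this value as a term, CRY2 differed by 0.23 in cohort 7a (limma adjusted p = 0.0783) and by 0.37 in cohort 7b (limma adjusted p = 0.0113). With the RNA integrity number as a term it differed by 0.06 in cohort 7b. That fit drops control 37, which the fit with the actin value keeps, so these fits differ in animals as well as in the term.

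Markers of other cell types were read as the mean level of each list. The mean of 5 of 5 microglia markers ran between 7.03 and 7.42 in drinkers and between 7.48 and 7.84 in controls of cohort 7a, with 3 called lower, and between 7.19 and 7.52 in drinkers against 7.67 and 7.72 in controls of cohort 7b, with 2 called lower and 1 higher. Drinkers lay below controls in both cohorts, and how often such a separation occurs among all probesets was not counted. In cohort 7a, 20.3% of all probesets were called lower and 10.6% higher, and in cohort 7b 26.1% lower and 14% higher. The mean of 3 of 5 astrocyte markers ran between 11.44 and 11.90 in drinkers and between 11.51 and 11.70 in controls of cohort 7a, with 1 called higher, and between 11.44 and 11.68 in drinkers against 11.04 in both controls of cohort 7b, with 2 called higher. The mean of 4 of 4 endothelium markers ran between 7.19 and 7.60 in drinkers and between 7.22 and 7.66 in controls of cohort 7a, with none called, and between 7.05 and 7.17 in drinkers against 7.29 and 7.32 in controls of cohort 7b, with 2 called lower. Astrocyte and endothelium levels thus overlapped in cohort 7a and did not in cohort 7b, and how often this occurs among all probesets was not counted either. The mean of 3 of 6 neuron markers ran between 11.37 and 11.50 in drinkers and between 11.05 and 11.44 in controls of cohort 7a, and between 11.20 and 11.45 in drinkers against 11.20 and 11.37 in controls of cohort 7b, with none called in either. For oligodendrocytes (1 of 5 markers) and smooth muscle (2 of 3) none was called in either cohort. The part of these cell markers in the CRY2 difference was not tested, and in a tissue sample fewer cells of a type and less RNA per cell cannot be told apart.

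PER2, the Period gene whose loss changes drinking in mice, had ethanol effects that differed between cohorts 7b and 5 by its brighter probeset, although neither effect passed within its own cohort. In cohort 5, PER2 by this probeset ran between 5.03 and 5.44 in drinkers, with a median of 5.24, and was 5.25, 5.42, 5.50, 5.56 and 5.57 in controls. Of the 8 drinkers, 4 lay below every control and 0 lay above the control median, counts not set against all probesets. The log2 difference was -0.21 (SE 0.09, unadjusted limma p = 0.0197, adjusted p = 1.00), and the exact permutation p was 0.0287 before any adjustment. In cohort 7a, PER2 ran between 5.46 and 5.77 in drinkers, with a median of 5.56, and was 5.52, 5.67, 5.72 and 6.14 in controls. The difference was -0.18 (SE 0.09, adjusted p = 0.134), and without control 25, the animal at 6.14, it was -0.05 (adjusted p = 0.702). Without control 27 it was -0.26 and passed (adjusted p = 0.0447).

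In cohort 7b the order was the other way round. PER2 by the brighter probeset was 5.47, 5.50, 5.54, 5.55 and 5.88 in drinkers and 5.29 and 5.36 in controls. All 5 drinkers lay above both controls, and how many of all probesets separate the groups in this way was not counted. Only 1 drinker and 1 control of this cohort shared a processing batch, so batch and treatment can hardly be told apart here. The difference was 0.26 (SE 0.13, adjusted p = 0.0939), and the exact permutation p was 0.143. The effect in cohort 7b minus that in cohort 5 was 0.47 (SE 0.15, limma adjusted p = 0.0152), in a contrast that called 31.6% of the probesets. This call was lost without control 37, where the difference was 0.43 (adjusted p = 0.0945), and with the RNA integrity number as a term, which drops the same animal (0.49, adjusted p = 0.139). The effect in cohort 7b minus that in cohort 7a was 0.44 (SE 0.15, adjusted p = 0.0613), in a contrast that called 9.94%. The mean effect of cohorts 7a and 7b minus that of cohort 5, which called 31.6%, did not pass for PER2 (difference 0.25, SE 0.12, adjusted p = 0.0991), for CRY2 (0.24, SE 0.11, adjusted p = 0.0797) or for PER1 (0.17, SE 0.14, adjusted p = 0.372).

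The brighter PER2 probeset had a mean of 5.42 ± 0.19 over all 32 drinkers and 5.55 ± 0.25 over all 11 controls (SD). Drinkers minus controls came to -0.12 (SE 0.07, 95% interval -0.27 to 0.02, limma adjusted p = 0.252). Blocking on cohort gave -0.10 (SE 0.06, adjusted p = 0.199). Within batches the drinkers had the higher mean in 3 of 7.

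The dimmer PER2 probeset gave smaller differences. It ran between 3.22 and 3.72 in drinkers and between 3.47 and 3.67 in controls of cohort 5, between 3.64 and 4.51 in drinkers and between 3.86 and 4.44 in controls of cohort 7a, and between 3.63 and 4.78 in drinkers against 4.06 and 4.16 in controls of cohort 7b. These levels lie near the low end of the array, and the groups overlapped in each cohort. Its differences were -0.04 (SE 0.13), -0.11 (SE 0.13) and -0.00 (SE 0.18) in cohorts 5, 7a and 7b, none with an unadjusted p under 0.05. The effect by this probeset in cohort 7b minus that in cohort 5 was 0.03 (SE 0.22, limma adjusted p = 0.932). Both PER2 probesets had only r = 0.23 with each other over the 43 arrays, with values centered within cohort and treatment.

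**Figure D2:**
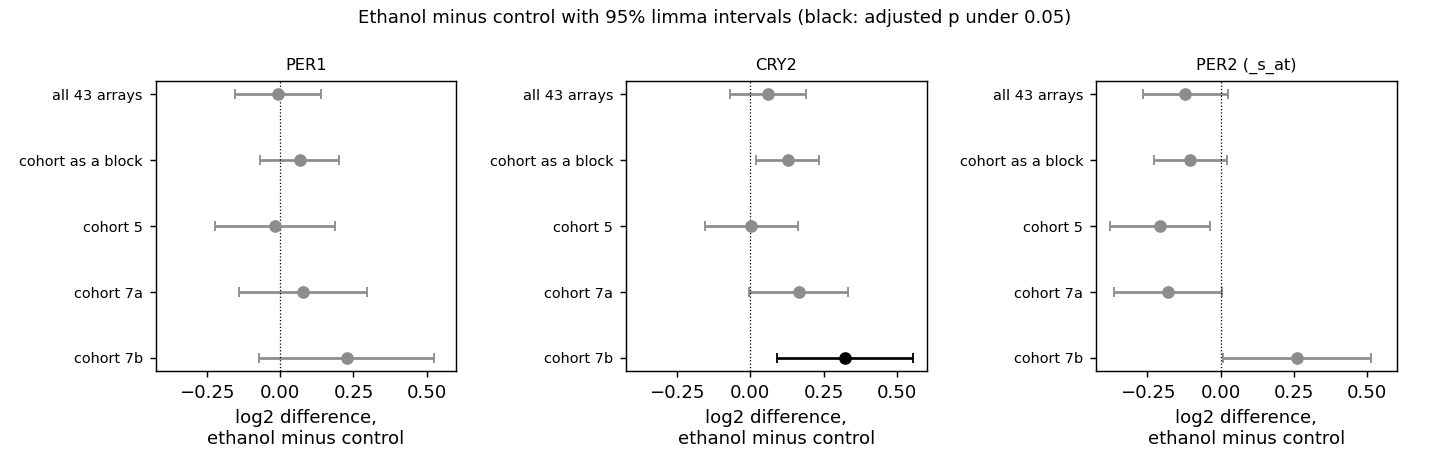
Log2 difference, ethanol minus control (x axis), of PER1, CRY2 and the brighter PER2 probeset in 5 comparisons (rows), with 95% limma intervals; black marks an adjusted p under 0.05 and gray a larger one. The 1 black point is CRY2 in cohort 7b at 0.32, and PER2 lies below 0 in cohorts 5 and 7a and above 0 in cohort 7b.

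Among drinkers, cohorts that shared a kit and an array run were compared with each other. Mean PER1 was 8.25 ± 0.18 in the 8 drinkers of cohort 5 and 8.08 ± 0.15 in the 11 of cohort 4 (SD), with a difference of 0.16 (SE 0.08, limma adjusted p = 1.00). The contrast called 0% of the probesets, and 909, a share under 0.05, had an unadjusted p under 0.05. CRY2 differed by 0.09 (SE 0.06) and PER2 by -0.11 (SE 0.07) in the same contrast. Mean CRY2 was 8.83 ± 0.10 in the 5 drinkers of cohort 7b and 9.04 ± 0.14 in the 8 of cohort 7a (SD), with a difference of -0.21 (SE 0.08, adjusted p = 0.0671), where 11.9% of the probesets were called. PER1 differed by -0.20 (SE 0.10, adjusted p = 0.197) and PER2 by 0.01 (SE 0.08, adjusted p = 0.978).

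No slope of these genes on how much the 32 drinkers drank passed the test. The slope on average daily intake was 0.04 log2 units per g/kg for PER1 (SE 0.04), 0.03 for CRY2 (SE 0.04) and -0.05 for PER2 (SE 0.04), each with an adjusted p of 1.00. Of the tested probesets 0% were called, and 507, a share under 0.05, had an unadjusted p under 0.05. Without the 2 drinkers farthest from the median intake, the slope was -0.10 for PER2 (SE 0.05, unadjusted limma p = 0.0382, adjusted p = 0.916), 0.0079 for CRY2 (SE 0.05) and 0.04 for PER1 (SE 0.05). Blocking on cohort gave slopes of -0.04 for PER1 (SE 0.05), -0.02 for CRY2 (SE 0.04) and -0.02 for PER2 (SE 0.04).

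PER1 and CRY2 varied together from animal to animal, while the correlations of the brighter PER2 probeset with either were near 0 or small. The study singled these genes out through co-expression on these same arrays, so a correlation between them is not independent evidence. Over the 32 drinkers, with values centered within cohort, PER1 and CRY2 had r = 0.63 (permutation p = 0.0003 within cohorts, adjusted p = 0.00450 over 15 relations) and rho = 0.67 (adjusted p = 0.00150). Without the 2 animals farthest from the median of PER1, r was 0.52 (permutation p = 0.00406, adjusted p = 0.0609), so the call after adjustment rests on those animals. It was 0.62 with values centered within processing batch (permutation p = 0.00266) and 0.66 after the actin 3′ minus 5′ value was regressed out (permutation p = 0.000120).

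The same relation had the same sign in each stratum. In drinkers of cohort 4, PER1 and CRY2 had r = 0.60 (11 animals, permutation p = 0.0517) and rho = 0.73 (p = 0.0146). In drinkers of cohort 5, r was 0.50 (8 animals, exact permutation p = 0.199) and rho 0.36 (exact p = 0.389), and in drinkers of cohort 7a, r was 0.70 (8 animals, exact permutation p = 0.0531) and rho 0.64 (exact p = 0.0962). In the 11 controls, centered within cohort, r was 0.62 (exact permutation p = 0.120) and rho 0.54 (exact p = 0.202). None of these 4 passed an adjustment over the 15 relations, where adjusted p was 0.266 or more for r. Without the 2 animals farthest from the median, r was 0.52, 0.55, 0.65 and 0.80 in that order. Within single batches of cohorts 4 and 5, which held 6, 7 and 6 drinkers, r was 0.04, 0.48 and 0.90, and the other batches held too few.

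No relation of PER2, read from its brighter probeset, passed the test. That probeset had r = 0.23 with the dimmer one over the 43 arrays, centered within cohort and treatment, and how well it follows PER2 mRNA was not tested. Over the same values the dimmer probeset had r = 0.22 with PER1 and 0.05 with CRY2. With PER1, the r of the brighter probeset was 0.09 over the 32 drinkers (permutation p = 0.634) and 0.22 over the 11 controls (exact permutation p = 0.549). With CRY2, it was -0.05 over drinkers (permutation p = 0.807) and -0.10 over controls (exact permutation p = 0.695). Within cohorts 4, 5 and 7a, the r of PER2 with PER1 or CRY2 lay between -0.26 and 0.31, and none of the 10 relations that involve PER2 had an adjusted p under 0.865.

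Whether these relations differed between drinkers and controls was tested in cohorts 5, 7a and 7b, which hold both groups. PER1 and CRY2 had r = 0.64 in 21 drinkers and 0.62 in 11 controls, a difference of Fisher z of 0.02 (two-sided permutation of treatment within cohort, p = 0.954). For PER1 and PER2, r was 0.12 in drinkers and 0.22 in controls (difference of z -0.10, permutation p = 0.752), and for PER2 and CRY2 it was -0.11 and -0.10 (difference of z -0.02, permutation p = 0.962). The adjusted p was 0.962 for each of the 3 pairs, and within cohort 5 alone the difference for PER1 and CRY2 had the other sign (-0.61, permutation p = 0.486).

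**Figure D3:**
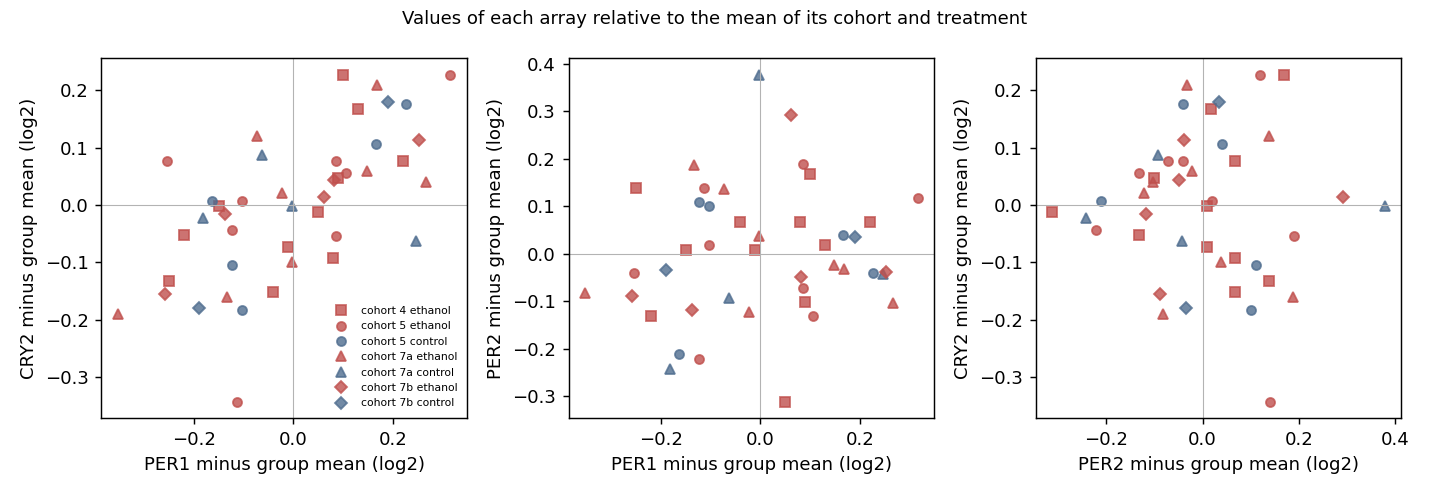
Values of PER1, CRY2 and PER2 (brighter probeset) in pairs, each array relative to the mean of its cohort and treatment in log2 units on both axes; red symbols are ethanol drinkers, blue symbols are controls, and shapes are cohorts. In the cohorts that hold both groups, r of PER1 and CRY2 is 0.64 in drinkers and 0.62 in controls, and in the 11 controls the relation did not pass the test. PER2 by this probeset follows neither.

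Genes whose level followed PER1 most closely over the 43 arrays, centered within cohort and treatment, included 3 others of the clock. USP2, a deubiquitinase that acts on clock proteins and is itself rhythmic, had r = 0.73, CIART, a repressor of CLOCK and BMAL1, had r = 0.72, and BHLHE40, a repressor that competes for the same DNA sites, had r = 0.69. The remaining genes among the first 5 of 13704 were AKAP1, a mitochondrial anchor of protein kinase A, at r = 0.71 and YY1AP1 at r = 0.70. CRY2 ranked 16th for PER1 and PER1 ranked 10th for CRY2. Genes closest to CRY2 were ERF, a transcriptional repressor of the ETS family, at r = 0.72, ASPH at 0.72, TFIP11, a splicing factor, at 0.67, ARHGEF2 at 0.66 and FHIP1B at 0.65. Genes closest to PER2 had lower values, with FASLG at r = 0.56, AHNAK at 0.56, CD207 at 0.55, SMIM24 at 0.54 and GPR174 at 0.54. For comparison, the middle 95% of all 13704 genes had r between -0.37 and 0.41 with PER1, between -0.37 and 0.43 with CRY2 and between -0.38 and 0.32 with PER2. These values describe likeness over arrays that share their processing, and no test was made of them.

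Of 32 other clock genes on the list used here, 23 had a probeset that names them alone, and the others were not analysed here. Above the middle 95% of all genes, PER1 had 4 of the 23, the fourth being NR1D1, the REV-ERB alpha receptor that represses ARNTL, at r = 0.47, and CRY2 had 3, with USP2 at 0.54, BHLHE40 at 0.53 and CIART at 0.51. Below it, PER1 had 2, with CLOCK at r = -0.41 and NFIL3, a repressor that opposes the PAR bZIP factors, at -0.45, and CRY2 had none. ARNTL, the partner of CLOCK, had r = -0.25 with PER1 and -0.26 with CRY2. PER2 had none of the 23 outside that range, and its highest value was with PER3, at 0.27. The median r over the 23 genes was 0.04 for PER1, against 0.00 over all genes.

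**Figure D4:**
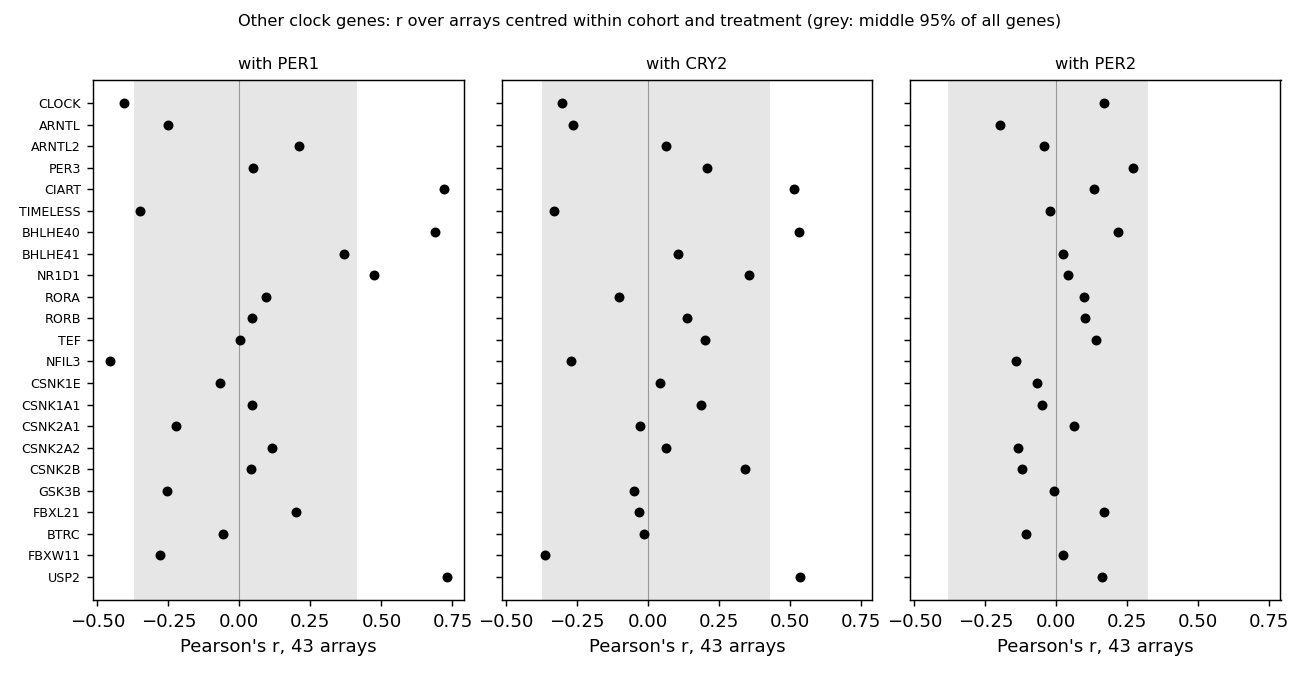
Pearson's r (x axis) of 23 other clock genes (rows) with PER1, CRY2 and the brighter PER2 probeset over 43 arrays, with values centered within cohort and treatment; the gray band holds the middle 95% of all 13704 genes. CIART, BHLHE40 and USP2 lie right of the band for PER1 and CRY2, CLOCK and NFIL3 lie left of it for PER1, and no gene lies outside it for PER2.

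Treatment itself left most of these other clock genes without a call. Over all arrays 0 of the 23 passed, where 5.57% of all probesets were called higher and 10.6% lower, with a median log2 difference of -0.04, the same as over all tested probesets. CLOCK differed by -0.04 (SE 0.11), ARNTL by 0.07 (SE 0.08), PER3 by -0.04 (SE 0.15) and NR1D1 by 0.01 (SE 0.05), with limma adjusted p of 0.818, 0.593, 0.872 and 0.914. CIART, whose level followed that of PER1, had -0.32 (SE 0.13, adjusted p = 0.0840).

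After blocking on cohort, 1 of the 23 was higher and 4 were lower, against 11.8% of all probesets called higher and 21.5% called lower. USP2 rose by 0.16 (adjusted p = 0.0343). RORB, an activating receptor of the ROR family, was lower at -0.27 (adjusted p = 0.0199). CSNK2B, the regulatory subunit of casein kinase 2, was lower at -0.14 (adjusted p = 0.00729). FBXL21, an F-box protein that targets CRY, was lower at -0.18 (adjusted p = 0.00223), and FBXW11, an F-box protein that targets PER, at -0.11 (adjusted p = 0.0398). The level of FBXL21 was near the low end of the array, with a mean of 3.57 at the 11.2th percentile, so its differences here are of a weak signal. In cohort 7b 4 of 23 were higher and 4 lower, where 14% of all probesets were called higher and 26.1% lower. GSK3B, a kinase that phosphorylates clock proteins, was higher by 0.53 (adjusted p = 0.000549), USP2 by 0.42 (adjusted p = 0.00527), CSNK1E, a kinase of PER proteins, by 0.41 (adjusted p = 0.0315) and TIMELESS by 0.41 (adjusted p = 0.00605). RORB at -0.61, NFIL3 at -0.57, CSNK2B at -0.36 and CSNK2A1, a catalytic subunit of casein kinase 2, at -0.22 were lower. In cohort 7a, where 10.6% were called higher and 20.3% lower, 0 of the 23 were higher and 2 were lower, FBXL21 at -0.32 and CSNK2B at -0.17, and in cohort 5 none was called.

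Signals that drive PER1 from outside the clock were read from 2 further lists. Of 8 glucocorticoid-induced genes, 7 were measured, and over all arrays 0 were called higher and 1 lower, where 5.57% of all probesets were called higher and 10.6% lower. The gene that fell was DUSP1, a phosphatase of MAP kinases, at -0.25 (adjusted p = 0.0344), while FKBP5, a co-chaperone of the glucocorticoid receptor, had -0.08 (adjusted p = 0.373). After blocking on cohort, which called 11.8% higher and 21.5% lower, ZBTB16, a transcription factor, rose by 0.32 (adjusted p = 0.00202) and DUSP1 was lower at -0.24 (adjusted p = 0.0140). Of 12 activity-induced genes, 9 were measured and 0 were called over all arrays or with cohort as a block, where 16.2% and 33.3% of all probesets were, FOS having -0.15 (adjusted p = 0.393) over all arrays. Between drinkers of cohort 7b and those of cohort 7a, 6 of the 9 were lower, with a median difference of -0.35 against -0.01 over all probesets, 7.32% of which were called lower. In that contrast PER1 had -0.20 and CRY2 -0.21, and neither passed.

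A further probeset, MmugDNA.11071.1.S1_at, is assigned to PER2 by the annotation that the study used, but the platform's probe table leaves it unnamed, so it does not count among the 4. Its values were looked at after those of the 4 were known. It ran between 6.98 and 8.13 in drinkers of cohort 7a, with a median of 7.43, and was 5.61, 5.99, 6.04 and 6.17 in controls. In cohort 7b it was 7.71, 7.77, 7.91, 7.93 and 7.97 in drinkers and 5.31 and 5.98 in controls. All drinkers lay above all controls in both cohorts, and how many other probesets separate the groups in this way was not counted. In cohort 5 it ran between 7.78 and 8.41 in drinkers and between 7.89 and 8.67 in controls, which overlapped.

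With unnamed probesets kept in the fit, the unnamed probeset was higher by 1.49 in cohort 7a (SE 0.15, limma adjusted p = 2.47e-10) and by 2.21 in cohort 7b (SE 0.21, adjusted p = 2.11e-11), in comparisons that called 28.1% and 36.3% of 48537 probesets. In cohort 5 the difference was -0.11 (SE 0.14, adjusted p = 1.00), and the effect in 7a and 7b minus that in cohort 5 was 1.97 (SE 0.19, adjusted p = 1.05e-10), where 28.1% were called. Over all arrays it was 1.06 (SE 0.25, adjusted p = 0.00332), where 17.1% were called. Over the 43 arrays, centered within cohort and treatment, it had r = -0.05 with the brighter PER2 probeset, 0.13 with PER1 and 0.02 with CRY2. Which transcript it measures was not examined here, since no probe sequence was used. No fit of the unnamed probeset held the actin 3′ minus 5′ value or the RNA integrity number as a term. The actin value ran between 0.93 and 1.60 in drinkers and between 0.76 and 0.87 in controls of cohort 7a. In cohort 7b it ran between 0.76 and 1.71 in drinkers, against 0.75 and 0.81 in controls. The part of RNA quality in these differences was not tested.

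**Figure D5:**
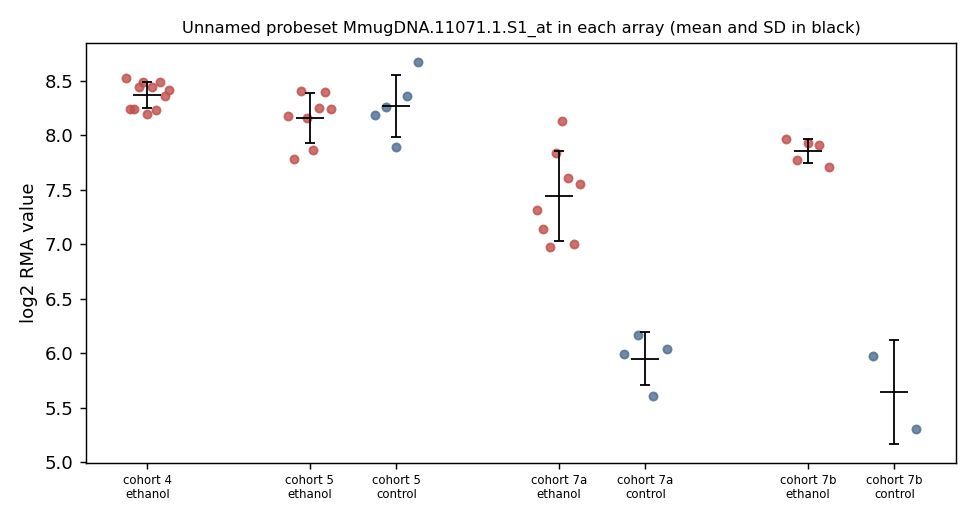
Log2 RMA value (y axis) of the unnamed probeset for each of the 43 arrays, by cohort and treatment; red points are ethanol drinkers, blue points are controls, and black bars are the group mean and SD. In cohorts 7a and 7b the 13 drinkers lie at 6.98 or above and the 6 controls at 6.17 or below, while drinkers and controls of cohort 5 overlap.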

How the data were processed

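The authors deposited log2 RMA values: background correction, quantile normalization over all arrays and summary per probeset with the affy package, per the submitters' processing notes (version not given in the sources used here), from Affymetrix Rhesus Macaque arrays and without adjustment for batch. From the 52865 probesets of 43 arrays, the 99 controls, the 27449 without a gene symbol and those under 3.5 in 80% or more of arrays were left out, which left 24151 (probesets of several symbols, 361 in all, stayed in the tests but name no gene). No genome build was used here, so no coordinates are given.

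Drinkers were compared with controls with limma 3.58.1 (R 4.3.3) in a two-class fit over all arrays, with cohort as a block, and within cohorts from group means of cohort and treatment. P-values were adjusted by Benjamini-Hochberg over all tested probesets, with calls at 0.05. A gene is represented by its probeset of highest mean. Statements that drinkers lay above or below the controls were not set against the share of all probesets that separate in this way. Correlations were tested by permutation (100000 draws, or all arrangements for under 10 animals and for controls). Alternatives used a ComBat adjustment for cohort (empirical Bayes, coded in R), RNA integrity numbers (42 animals) and intake from the study's phenotype table, and 8 processing batches inferred by comparing deposited values with the study's adjusted ones. The two-class fit and the fit with cohort as a block were tested on data simulated without processing batches, and the other fits were not tested in this way. Member genes and lists were chosen with earlier results of these data known. Named were all member probesets, CLOCK, ARNTL, PER3 and NR1D1, of the rest of each list the 3 largest called differences in each direction, and the 5 genes most like each member. The other clock genes came from a textbook list. CIART, FKBP5, FOS, the fourth gene of a direction and the unnamed probeset were singled out after their values were seen. Each animal gave 1 array, so p-values measure the spread between animals, and the number of arrays limits precision.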

Additional observations from a re-analysis of the deposited data

Results flagged for a closer look

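By the brighter PER2 probeset, the ethanol effect in cohort 7b exceeded that in cohort 5 by 0.47 on the log2 scale (SE 0.15, limma adjusted p = 0.0152). In this contrast 31.6% of the probesets were called, and the dimmer PER2 probeset had 0.03 (limma adjusted p = 0.932). The main contrast, the mean effect of cohorts 7a and 7b minus that of cohort 5, did not pass for the brighter probeset (0.25, limma adjusted p = 0.0991). Kit, array run and cohort cannot be told apart in either contrast. Within cohort 7b, only 1 drinker and 1 control shared a processing batch. By the brighter probeset, PER2 was higher than both controls in 5 of 5 drinkers of cohort 7b (difference 0.26, exact permutation p = 0.143). It was lower than every control in 4 of 8 drinkers of cohort 5 (difference -0.21, exact permutation p = 0.0287 before any adjustment). How many of all probesets separate the groups in this way was not counted. The call for cohort 7b minus cohort 5 was lost without control 37, which leaves a single control in cohort 7b.

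The effect on the unnamed probeset that the study's annotation assigns to PER2 also differed, with the mean effect of cohorts 7a and 7b exceeding that of cohort 5 by 1.97 (SE 0.19, limma adjusted p = 1.05e-10). The part of RNA quality in this difference was not tested.

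One drinker of cohort 7b lay far from the other 4 in the brighter PER2 probeset, at 5.88, with a gap to the next animal of 0.81 of the whole range of the group. A lone value was looked for in 20 groups, which share animals across probesets. Among so many groups 1 such animal can arise by chance, at a rate that was not computed here.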

How the results depend on the processing

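Of 143 alternatives other than arrays left out, 111 kept direction and side of the threshold, and 28 of 52 results kept both with every array left out in turn. The cause of the changes below was not tested. PER1 over all arrays changed sign with cohort as a block (0.066), with batch as a block (0.0011), in cohorts 5, 7a and 7b only (0.059), with the actin value and cohort as terms (0.048) and after ComBat (0.056). With the RNA integrity number as a term, which drops control 37, PER1 was -0.15 in cohort 7b and -0.11 for cohort 7b minus cohort 5, CRY2 was -0.0028 in cohort 5 and 0.055 in cohort 7b, and PER2 was 0.49 for cohort 7b minus cohort 5 and no longer passed. With the actin value as a term, CRY2 passed for cohorts 7a and 7b minus cohort 5 (0.29) and for cohort 7b minus cohort 5 (0.36). CRY2 over all arrays passed after ComBat (0.12), and in cohort 7b (0.32) it no longer passed when that cohort was fitted on its own or by the exact permutation test. PER2 in cohort 5 (-0.21) passed by the unadjusted exact permutation test, and PER2 passed for cohort 7b alone minus cohort 5 (0.47). With cohort as a block the intake slopes were -0.035 for PER1 and -0.017 for CRY2.

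For PER2 and CRY2 in cohort 4, rho was -0.10 and r without the 2 farthest animals was -0.33. Without the 2 farthest of the 32 drinkers, r was 0.52 for PER1 and CRY2, no longer past the threshold, and -0.022 for PER1 and PER2. The difference in Fisher z between drinkers and controls within cohort 5 was -0.61 for PER1 and CRY2, 0.23 for PER1 and PER2 and 0.25 for PER2 and CRY2, and by rho it was 0.10 for PER2 and CRY2. The 3901 probesets called over all arrays became 1317 at an adjusted p under 0.01, 8044 with cohort as a block, 2339 in cohorts 5, 7a and 7b only, 1182 with cohort and RNA integrity number, and 9106 after ComBat.

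With 1 array left out, ranges were -0.054 to 0.025 for PER1 over all arrays, 0.087 to 0.15 for CRY2 with cohort as a block, and, in cohort 5, -0.063 to 0.038 for PER1 and -0.043 to 0.053 for CRY2. They were -0.26 to -0.054 for PER2 in cohort 7a and 0.14 to 0.50 for CRY2 in cohort 7b. For cohorts 7a and 7b minus cohort 5 they were 0.21 to 0.31 for PER2 and 0.15 to 0.33 for CRY2. For cohort 7b minus cohort 5 they were 0.39 to 0.52 for PER2 and 0.14 to 0.50 for CRY2, and for cohort 7b minus cohort 7a -0.041 to 0.34 for PER1, 0.31 to 0.52 for PER2 and -0.024 to 0.34 for CRY2. Between drinkers of cohorts 7b and 7a they were -0.068 to 0.036 for PER2 and -0.24 to -0.17 for CRY2. The r of PER1 and PER2 ran between -0.16 and 0.26 in cohort 4, and that of PER2 and CRY2 between -0.23 and 0.25 in cohort 4, -0.51 and 0.23 in cohort 5, -0.40 and 0.23 in cohort 7a, -0.14 and 0.065 in the 32 drinkers and -0.21 and 0.0050 in controls. The difference in Fisher z ran between -0.52 and 0.25 for PER1 and CRY2, -0.27 and 0.11 for PER1 and PER2, and -0.13 and 0.14 for PER2 and CRY2, and the count of called probesets between 1719 and 5114. The count fell below 3901 by over 1.5 times without control 27, 28, 37 or 38. CRY2 with cohort as a block passed without control 13 or 14 or drinker 22 or 31, and between drinkers of cohorts 7b and 7a without drinker 22, 30 or 31. For cohorts 7a and 7b minus cohort 5, PER2 passed without control 15 or 25 and CRY2 without control 16 or 38 or drinker 17. For cohort 7b minus cohort 5, PER2 was lost without control 37, and CRY2 passed without control 16 or 38 or drinker 17 or 40. For cohort 7b minus cohort 7a, PER2 passed without control 27 or drinker 30 or 41. Where leaving out 1 control of cohort 7b left 1, that animal was assumed to vary like the other groups. No paired analysis was possible because no replicate number is shared between groups.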
